A study of Mus musculus with 6 samples.

Results

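The GABA and glycine signalling genes are 29 genes that make, release, clear or sense the inhibitory transmitters GABA and glycine. They were measured in the cerebellum of C57BL/6J mouse pups (C57BL/6 in the labels) at postnatal day 1. A gene was taken as a member where a non-control probe on the array carries its symbol, and all 29 were found, with 44 probes, among 34797 gene names. Of the 29, 26 had a probe that 2 or more arrays measured well above background, and these were carried through the fits, against 25638 gene names in all. The remaining 3 are Gabra6 and Glra3, which were above background on 0 arrays, and Gabrq, which was above it on 1.

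Pups came from dams fed an amino acid-based diet with folic acid (FA) at 2 mg/kg or at 20 mg/kg. The diets were fed from before mating and through pregnancy. The methods give 2 mg/kg as the recommended basal level for rodents, so the 2 mg group received FA as well. There were 4 groups, with 1 array for males and 1 for females at 2 mg, and 2 arrays (replicates 1 and 2) for each sex at 20 mg. Each array held RNA pooled from 3 pups of separate dams, so the pool is the unit of replication, and no spread between pools exists at 2 mg. The methods describe the repeat extraction at 20 mg as a different batch, and the tissue is called whole brain in 1 label field but cerebellum in the titles.

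GABA and glycine open chloride channels on the receiving neuron. GABA is made from glutamate by the decarboxylases Gad1 and Gad2, loaded into vesicles by Slc32a1, cleared by plasma membrane transporters and degraded by Abat. GABA-A receptors are pentamers assembled from alpha, beta, gamma, delta, epsilon, theta and rho subunits, whereas GABA-B receptors act through G proteins. Around birth the alpha2, alpha3 and alpha5 subunits are typical of immature neurons, and in the cerebellum alpha6 and delta appear later with the maturing granule cells. Glycine receptors pass from the fetal alpha2 subunit to alpha1 during the same period, and gephyrin (Gphn) holds both receptor families at the synapse.

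The arrays give the brightness of labelled RNA on probes of 60 bases. Levels are log2 processed signals after quantile normalization, and a difference is the 20 mg level minus the 2 mg level of the same sex on that scale. The value of a gene is that of its brightest probe. A change of 2.5-fold, the threshold used by the study, is 1.32 on the log2 scale. The share of all probes well above background ran from 51.1% to 71.9% on 5 arrays. Female 20 mg replicate 2 was dim, with 23.3% of probes above background, the dimmest of them at a level of 8.82, and a mean Spearman rho of 0.649 with the rest. Slide 1 carried the pools of both sexes at 2 mg and the first female pool at 20 mg. Slide 2 carried the second female and the first male pool at 20 mg, and the second male pool was alone on slide 3. In males the dose therefore cannot be told apart from the slide.

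Gabra2 is the member whose male difference passed 2.5-fold on both 20 mg arrays, and it has a pair of probes at chr5:71352275-71352334 and chr5:71352306-71352365 (mm9, minus strand). The stretches below, 5′ to 3′ in the sense of the gene, show why these probes are not independent. Capitals mark the 29 bases that both contain, at chr5:71352306-71352334.
Gabra2 brighter probe, bases 1 to 30: TCAGCTCACTTCAATCATTGGAAACTACCt
Gabra2 other probe, bases 31 to 60: tTCAGCTCACTTCAATCATTGGAAACTACC

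Probe composition varied among the members, and it bears on the arrays with a trend in composition that are described further on. The first 30 bases of 5 probes are shown with G and C in capitals. They are Gphn, lower on all 4 arrays at 20 mg, the 3 genes whose arrays went opposite ways in the sexes (Gabrb1, Gabra3 and Slc6a5), and Slc6a13, whose whole probe had the highest share of G and C among the 29 (53.3%, against 35% for Slc6a5).
Gphn, chr12:79785608-79785637 (mm9, plus strand): CtGatCttGtaCaGatattaGtGttaCCaG
Gabrb1, chr5:72528086-72528115 (mm9, plus strand): tCGCttGttttttaaCCCCaCaGattCCCa
Gabra3, chrX:69678061-69678090 (mm9, minus strand): CtGtaGaaattGtGttttaaaatGCtttGG
Slc6a5, chr7:57219046-57219075 (mm9, plus strand): GCttattatataCtGtGCattattCattta
Slc6a13, chr6:121287597-121287626 (mm9, plus strand): GGtCCaCaCattGtGaCGtGCCCGaatCaa

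The machinery of the inhibitory neuron itself was detected on every array and did not differ between doses beyond the spread of the pools. Gad1, which makes most of the GABA of the cell body, had a level of 12.31 on the female 2 mg array, with 11.98 and 11.16 at 20 mg. In males it was 12.19 at 2 mg, with 13.02 and 11.88 at 20 mg, so the male 20 mg arrays lay on either side of the 2 mg array. Gad2, the form tied to nerve endings, was 12.08 in females at 2 mg, with 12.16 and 11.83 at 20 mg. In males Gad2 was 11.81 at 2 mg, with 12.61 and 11.77 at 20 mg. Abat, which degrades GABA, was 14.13 in females at 2 mg, with 14.42 and 15.27 at 20 mg, and 14.10 in males, with 14.66 and 13.34. Both female 20 mg arrays were above the female 2 mg array for Abat, while the male 20 mg arrays again lay on either side. The vesicular transporter Slc32a1 was 14.71 in females at 2 mg, with 14.72 and 15.21 at 20 mg. In males Slc32a1 was 14.74 at 2 mg, with 15.30 and 14.12 at 20 mg. For all 4 genes the male difference was between -0.10 and 0.38, less than the gap between the male 20 mg pools, which was between 0.84 and 1.32.

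**Figure D1:**
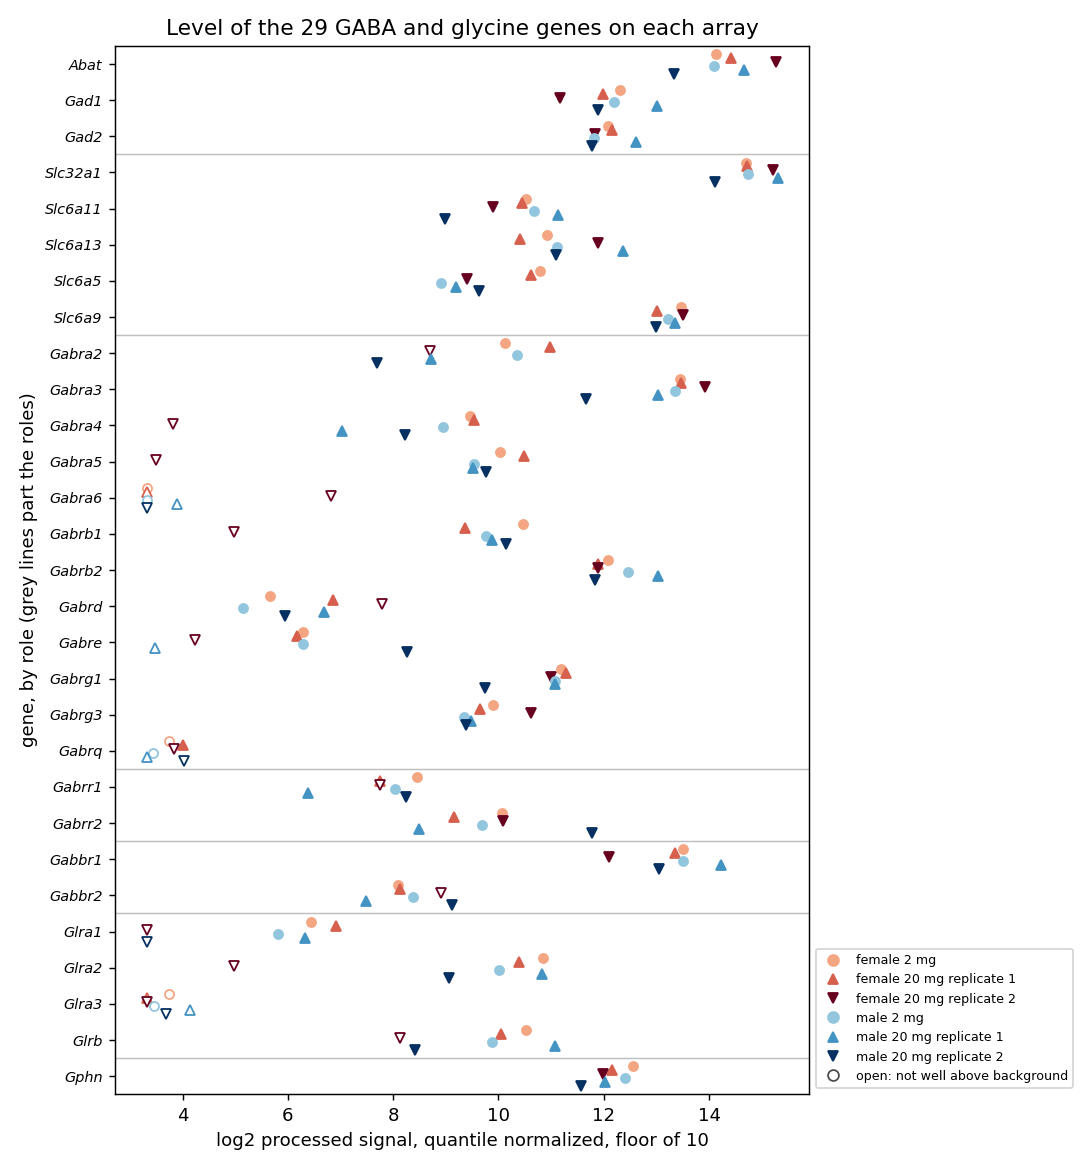
Level (log2 processed signal) of each of the 29 genes on the 6 arrays, ordered by role. Reds are female and blues male arrays, circles 2 mg, upward triangles 20 mg replicate 1 and downward triangles 20 mg replicate 2, and open symbols are values not well above background. Gad1, Gad2, Abat and Slc32a1 lie above 11 on every array, while open symbols below 5 on female 20 mg replicate 2 include Gabra4, Gabra5, Gabrb1 and Glra2, which lie above 8.9 on both 2 mg arrays.

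The transporters that remove GABA and glycine also moved by less than 2.5-fold in the mean of either sex. Slc6a5, which returns glycine to glycinergic endings, was 8.92 in males at 2 mg, with 9.19 and 9.63 at 20 mg. In females Slc6a5 was 10.78 at 2 mg, with 10.62 and 9.39 at 20 mg, so both male arrays rose and both female arrays fell relative to 2 mg. The astrocytic GABA transporter Slc6a11 gave differences of 0.45 and -1.71 on the male 20 mg arrays, a gap of 2.16. Slc6a13, a GABA transporter of the meninges as well, gave 1.26 and -0.02 in males and -0.50 and 0.98 in females. Slc6a9, the glial glycine transporter, was steadiest, with all 6 arrays between 12.99 and 13.50. Its other probe, which shares 51 bases with the first, gave differences of -0.0045 in males and -0.43 in females.

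Among the alpha subunits of the GABA-A receptor, Gabra2 was the one with lower levels on both male 20 mg arrays by more than 2.5-fold. The level of Gabra2 was 10.35 on the male 2 mg array, 8.71 on male 20 mg replicate 1 and 7.70 on replicate 2. The mean at 20 mg was 8.21 ± 0.72 (SD, n = 2), 4.42-fold below the 2 mg array, and the difference of -2.14 was larger than the gap of 1.01 between the pools. In females Gabra2 was 10.12 at 2 mg and 10.97 on 20 mg replicate 1, the highest of the 6 arrays, and it was not well above background on replicate 2. The limma difference in males was -2.14 with a standard error of 1.47 and an adjusted p of 1, so it was not called. The second probe gave 9.89 at 2 mg, 8.65 and 7.34 at 20 mg in males, a difference of -1.90. Over the 10 alternatives run for single genes, the male difference of Gabra2 stayed between -2.61 and -1.68. It then missed the filter on variation, though not the fold threshold, in 4 of them.

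Of all probes passing that filter, 7.92% were at least 2.5-fold lower in the mean of the male 20 mg arrays and 5.17% higher. Of the 9 members that passed it, 1 was lower (Gabra2) and 0 were higher. Without the filter on variation, past 2.5-fold on both male arrays were 1.36% of the 37211 fitted probes downward and 0.422% upward. Of the 26 members, 1 was past it downward (Gabra2) and 0 upward.

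Gabra2 lies in a cluster of receptor genes on chromosome 5, and of its neighbours Gabra4 was lower on both male arrays as well, while Gabrg1 and Gabrb1 were not. Gabrg1, a gamma subunit, had a male difference of -0.66, made of 0.0011 on replicate 1 and -1.33 on replicate 2. Gabra4 was 8.94 in males at 2 mg, with 7.03 and 8.22 at 20 mg, a difference of -1.31 that stops just short of 2.5-fold. Gabrb1, at the other end of the cluster, was 9.77 in males at 2 mg, with 9.88 and 10.14 at 20 mg. Thus the male arrays gave lower values at 20 mg on both pools for Gabra2 and Gabra4, a lower value on 1 pool for Gabrg1 and slightly higher values for Gabrb1. Their probes held 35% G and C for Gabra2 and Gabra4, 38.3% for Gabrg1 and 45% for Gabrb1. On male 20 mg replicate 2 the median of fitted probes of over 33% to 37% was -0.71, beside -0.72 for Gabra4 and -2.65 for Gabra2. On replicate 1 it was 0.06, beside -1.91 and -1.64. The share of all probes lower on both male arrays was not counted, and the part of composition was not tested.

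The other alpha subunits differed in how the sexes behaved. Gabra3 (chrX) was 13.36 in males at 2 mg, with 13.03 and 11.66 at 20 mg. In females it was 13.45 at 2 mg, with 13.46 and 13.91 at 20 mg. The second Gabra3 probe did not share these values. It was 5.12 in males at 2 mg, with 5.93 and 5.26 at 20 mg, a difference of 0.47. In females it was 4.96 at 2 mg, with 5.81 and 9.41 at 20 mg, above background on each array, a difference of 2.66. Gabra5 hardly moved in males, at 9.53 with 9.51 and 9.76 at 20 mg. In females Gabra5 was 10.03 at 2 mg and 10.48 on 20 mg replicate 1, and it was not above background on replicate 2. Gabra6, the mature granule cell subunit, was at the floor of the scale on both 2 mg arrays and was not above background on any array, so no fold is given.

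Gabrd, the delta subunit of extrasynaptic receptors, was higher than the 2 mg array of its sex on the 3 arrays at 20 mg that measured it. Its level in males was 5.16 at 2 mg, with 6.69 and 5.94 at 20 mg. In females it was 5.67 at 2 mg and 6.86 on 20 mg replicate 1, while the value of 7.78 on replicate 2 was not above background. The male difference was 1.16, larger than the gap of 0.75 between the male pools. The limma fit, whose spread also takes in the dim female array, gave it a standard error of 2.15 and an adjusted p of 1. The scaffold gene Gphn was the member that was lower, and above background, on all 4. Gphn was 12.40 in males at 2 mg, with 12.02 and 11.58 at 20 mg, and 12.55 in females, with 12.15 and 11.98. These differences of -0.60 and -0.48 exceeded the gaps of 0.45 and 0.17 between pools but are under 2.5-fold, with limma adjusted p of 1. The Gphn probe held 35% G and C. On the second arrays the median of fitted probes of over 33% to 37% was -0.71 in males and -0.58 in females. Gphn was near it there, at -0.82 and -0.57. On the first arrays that median was 0.06 in males and 0.13 in females, beside -0.38 and -0.40 for Gphn. Of all fitted probes, 6.69% were lower and 5.13% higher on all 4 arrays, against 1 of 26 members in each direction (Gphn, and Gabrd if its value on the dim array is counted), so the members did not stand above the other probes in this count.

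**Figure D2:**
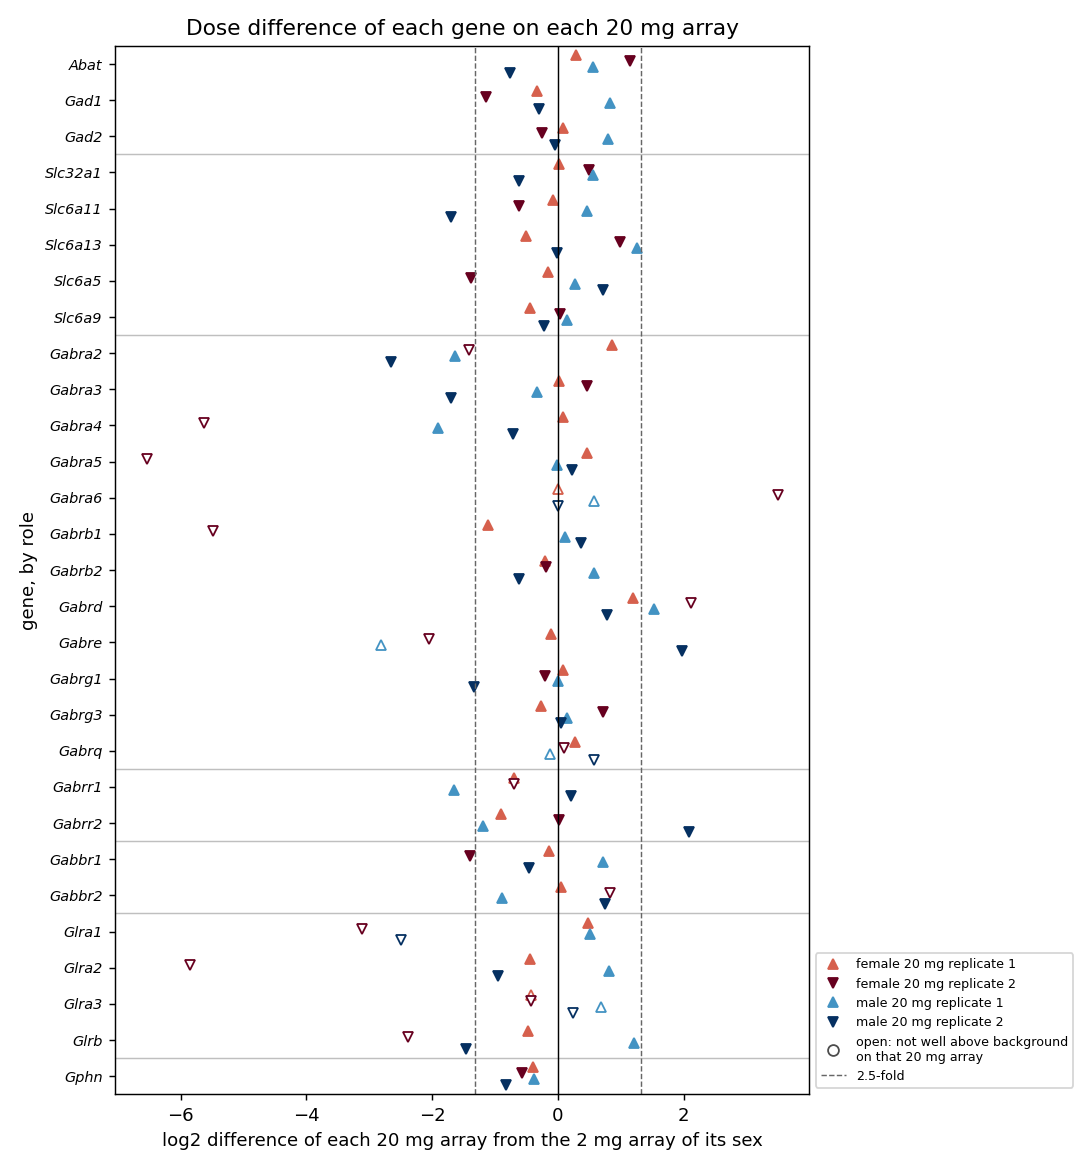
Difference (log2) of each 20 mg array from the 2 mg array of its sex for the 29 genes, with dashed lines at 2.5-fold and open symbols where the 20 mg value was not well above background. Both blue symbols of Gabra2 lie left of the lower line, at -1.64 and -2.65, all 4 symbols of Gphn lie left of 0 and all 4 of Gabrd right of it, 1 of them open.

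The remaining GABA-A subunits gave small differences or values that disagreed between pools. Gabrb2, in the same chromosome 11 cluster as Gabra6, was 12.46 in males at 2 mg, with 13.03 and 11.83 at 20 mg, and 12.09 in females, with 11.88 and 11.89. Gabrg3 gave male differences of 0.14 and 0.04. Gabre, the epsilon subunit, was 6.29 on the male 2 mg array, 8.27 on 20 mg replicate 2 and not above background on replicate 1. The rho subunits, best known from the retina, varied in a similar way. Gabrr2 was 9.69 in males at 2 mg, with 8.50 and 11.78 at 20 mg, and 10.07 in females, with 9.16 and 10.08. Gabrr1 was 8.03 in males at 2 mg, with 6.39 and 8.23 at 20 mg. For both rho genes the male 20 mg arrays lay on opposite sides of the 2 mg array.

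The GABA-B receptor is made of an agonist-binding subunit, Gabbr1, and a G protein-coupling subunit, Gabbr2. Gabbr1 was 13.51 in males at 2 mg, with 14.23 and 13.05 at 20 mg, and 13.50 in females, with 13.36 and 12.09. Gabbr2 was 8.37 in males at 2 mg, with 7.48 and 9.12 at 20 mg. By these brightest probes Gabbr1 was up and Gabbr2 down on male replicate 1, and the reverse on replicate 2. The other probes did not all share this pattern. Of the other Gabbr2 probes 1 was lower on both male arrays (-1.21 and -1.40) and 1 higher on both (0.11 and 0.96), and 1 of the other Gabbr1 probes was higher on both (0.02 and 0.48).

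The glycine receptor subunits showed their largest gaps between pools rather than between doses. Glra2, the fetal alpha subunit, was 10.01 in males at 2 mg, with 10.83 and 9.06 at 20 mg. In females Glra2 was 10.84 at 2 mg and 10.40 on 20 mg replicate 1. Glrb, the beta subunit that binds gephyrin, was 9.88 in males at 2 mg, with 11.08 and 8.42 at 20 mg. In females Glrb was 10.52 at 2 mg and 10.05 on 20 mg replicate 1. Glra1, the adult alpha subunit, was 5.81 in males at 2 mg and 6.32 on 20 mg replicate 1, and it was at the floor on replicate 2. In females Glra1 was 6.45 at 2 mg and 6.92 on 20 mg replicate 1. The male 20 mg arrays fell on either side of the 2 mg array for each of these 3 genes.

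In females, 6 members were at least 2.5-fold lower in the mean of the 20 mg arrays (Gabra4, Gabra5, Gabrb1, Glra1, Glra2 and Glrb) and 1 was higher (Gabra6), of the 9 that passed the filter. Over all probes passing the filter, 37.6% were lower and 31.6% higher. All 6 decreases rest on the dim second female pool, on which none of these probes was well above background. A value there says only that the signal could not be told from background. The level of the dimmest probe above background on that array, 8.82, served as a nominal limit. The female 2 mg level exceeded it 3.15-fold for Gabrb1, 4.05-fold for Glra2, 3.26-fold for Glrb, 2.31-fold for Gabra5 and 1.55-fold for Gabra4. The limit varies between probes, as Gabbr2 was not above background there at 8.91, nor Shmt2, a gene outside the members, at 9.37. These folds are therefore not firm lower bounds. Glra1 has no such value, since its 2 mg level was under the limit. Gabra6 was not above background anywhere, so its increase is no measurement.

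The other female pool gave a different picture. On female 20 mg replicate 1, which shared the slide with the 2 mg array, 0 of 26 members were past 2.5-fold, against 5.01% of all fitted probes. The differences on that array ran from -1.12 (Gabrb1) to 1.19 (Gabrd). Gabrb1 was 10.47 at 2 mg and 9.36 on this array, so it was lower on both female arrays, by 1.12 where it was measured. Both female arrays past 2.5-fold were found for 1.64% of all fitted probes downward and 0.58% upward, and for 0 of 26 members in either direction.

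The members lost to detection on the dim array were receptor subunits, though other subunits stayed above background there. Of the 24 members above background on the other 5 arrays, 9 were not above it there, against 51.8% of 25741 probes. These 9 are 5 GABA-A subunits (Gabra2, Gabra4, Gabra5, Gabrb1 and Gabrd), the rho subunit Gabrr1, the GABA-B subunit Gabbr2 and both Glra2 and Glrb. The genes for synthesis and breakdown, the transporters and Gphn all stayed above background there. So did the receptor subunits Gabra3, Gabrb2, Gabrg1, Gabrg3, Gabrr2 and Gabbr1. The female 2 mg levels of the 9 ran from 5.67 to 10.84, against 9.90 to 14.71 for the 15 that stayed above background. Among those 15, the differences on that array ran from -1.40 (Gabbr1) to 1.15 (Abat), with a median of -0.19.

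Over the 26 members the gap between the pools of 20 mg was larger than the mean dose difference for 21 in males (80.8%, against 75.1% of all fitted probes) and for 22 in females (84.6%, against 81.9%). The 5 exceptions in males were Gabra2, Gabra4, Gabrd, Gphn and Slc6a5. In females the exceptions were Gabrd, Gphn, Gabrb2 and Gabrr1, of which Gabrd and Gabrr1 were not above background on replicate 2 and have no measured gap. The median difference of the members was -0.05 in males, with -0.04 over all fitted probes, and -0.39 in females, with -0.21 over all. In males 16 members were lower and 10 higher, against 19551 lower and 17646 higher of the 37211 fitted probes. In females 19 members were lower and 7 higher, against 21522 lower and 15688 higher of these probes.

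**Figure D3:**
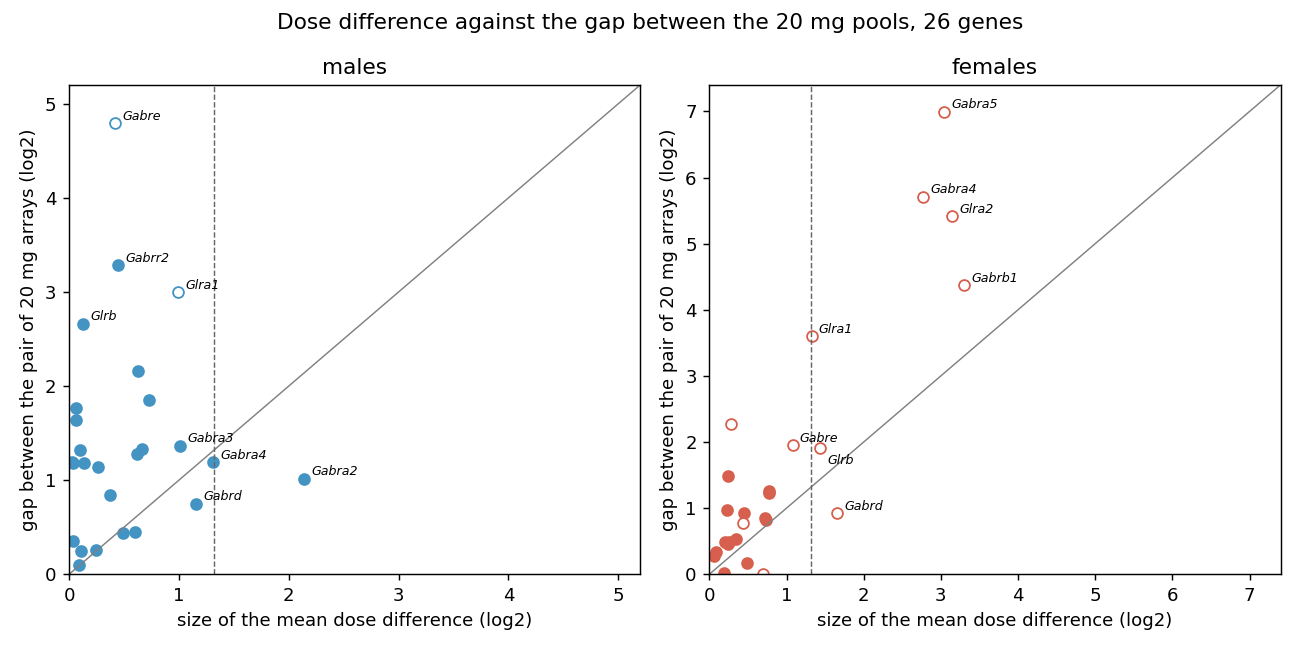
Gap between the pair of 20 mg arrays against the size of the mean dose difference (both log2) for the 26 fitted genes, males left and females right. The diagonal marks equality, the dashed line 2.5-fold, and open symbols are genes with an array of that sex not well above background. In males Gabra2 (2.14, gap 1.01) is the one gene both right of the dashed line and below the diagonal, and the female genes far right lie above the diagonal except Gabrd.

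The limma fit, whose spread comes from the 20 mg pairs and is assumed to hold for each lone 2 mg array, called 0 of 26 members and 0 of 37211 probes (0%) for dose in males, dose in females, dose over both sexes, the interaction of dose and sex, and sex at 20 mg. At an unadjusted p under 0.05 the fit counted 74, 161, 145, 51 and 436 probes in these comparisons, and 0 members in each. The smallest unadjusted limma p-values among the members were 0.0642 for dose in females and 0.0521 for sex at 20 mg, both for Gabrb1, with adjusted p of 1. In males the smallest was 0.158, for Gabra2. The interaction was smallest for Gabrb1 as well (0.153), where the female minus male difference was -3.55 and rests on a female value not above background. The female 20 mg pair holds the dim array, and its spread enters the standard errors of every comparison, those in males included. For dose over both sexes, Gabrd had a difference of 1.41 with a standard error of 1.52. Over 5 arrays, without female 20 mg replicate 2, a limma fit of dose and sex gave 1.35 with 0.79. For Gabra2 these were -1.21 with 1.04 and -0.87 with 0.78.

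Probe composition moved with the values on each 20 mg array, most on the second array of each sex. On male 20 mg replicate 2 the median difference of all fitted probes rose from -0.99 for probes of up to 33% G and C to 1.31 for those above 57%. The median probe of the 29 members held 38.3% G and C, against 43.3% over all probes, fitted or not. Of the 26 fitted members, 17 had probes of up to 40%. The members' median difference on that array was -0.38, and it was 0.09 after the median of all probes in the same bin was subtracted. On female 20 mg replicate 2 the median of all fitted probes rose from -1.54 to -0.12 between the same bins, and the members' median went from -0.59 to 0.07 after the same step. The first arrays had other shapes. On female 20 mg replicate 1 the median of all fitted probes fell from 0.14 to -0.33 between the same bins. On male 20 mg replicate 1 it was -0.75 and -0.78 in these outer bins and up to 0.20 between them. The members' median on male 20 mg replicate 1 was 0.21, and 0.15 after the same step. On female 20 mg replicate 1 the members' median was -0.12, and -0.18 after the step. With the trend removed from each array, an alternative chosen after seeing the data, the male difference of Gabra2 was -1.78, still past 2.5-fold. In females the same alternative left Gabra4, Gabra5, Gabrb1 and Glra2 past the fold rule, while Glra1 (-1.16) and Glrb (-1.19) were no longer past it.

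**Figure D4:**
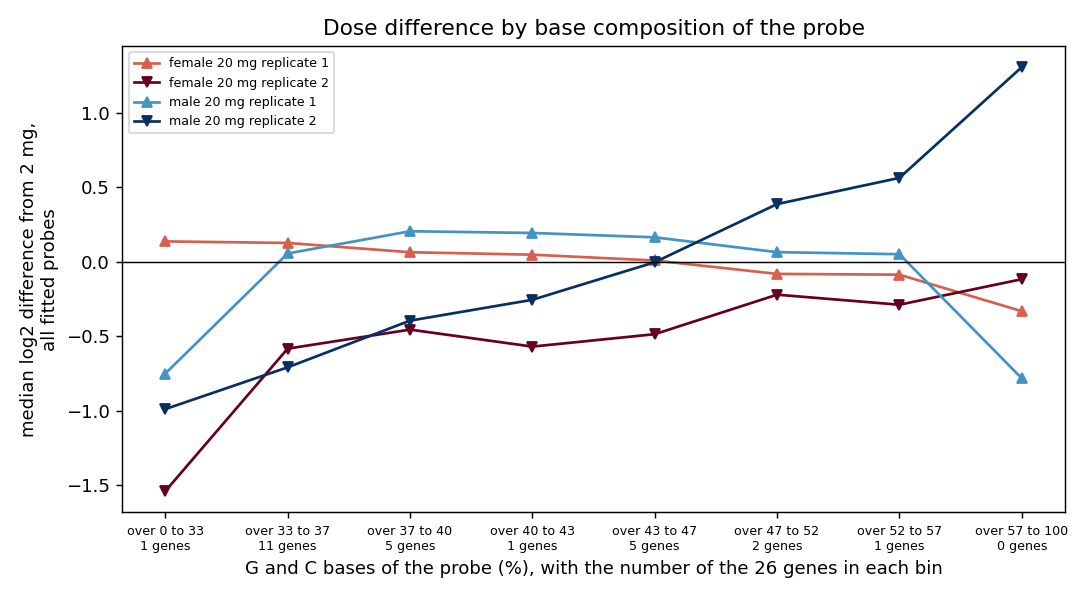
Median difference (log2) from the 2 mg array of the same sex over all fitted probes, by share of G and C in the probe, with 1 line for each 20 mg array. On male 20 mg replicate 2 the line climbs from -0.99 to 1.31, and 17 of the 26 genes fall in the 3 bins up to 40%, where it is below 0.

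At 2 mg the sexes could be compared on 1 array each, on the same slide and with no replicate. Slc6a5 was the member past 2.5-fold, at 10.78 in the female and 8.92 in the male, a difference of 1.86. Over all probes above background on both arrays, 0.538% were past 2.5-fold higher in the female and 0.34% higher in the male, against 1 and 0 of 26 members. The other 25 members differed by -0.37 (Gabrb2) to 0.82 (Glra2). Without female 20 mg replicate 2, a limma fit of dose and sex over 5 arrays gave Slc6a5 a female minus male difference of 1.46 with a standard error of 0.51 and an adjusted p of 1.

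Markers of neighbouring tissue differed between the 2 mg arrays as well. In the list for brainstem and spinal cord, where glycinergic neurons are abundant, 12 of 12 genes were higher in the female at 2 mg, by 0.43 to 2.73. The summed level of that list was 14.28 on the female and 12.36 on the male 2 mg array. On the 20 mg arrays it was 14.05 and 12.63 in females and 11.99 and 13.17 in males. On female 20 mg replicate 2, 4 of the 12 genes were above background. Hoxb4, with 10.51 on the female and 8.01 on the male 2 mg array, was above background on all 6 arrays, as was Hoxb5. The part of such markers in the levels of Slc6a5 was not tested.

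**Figure D5:**
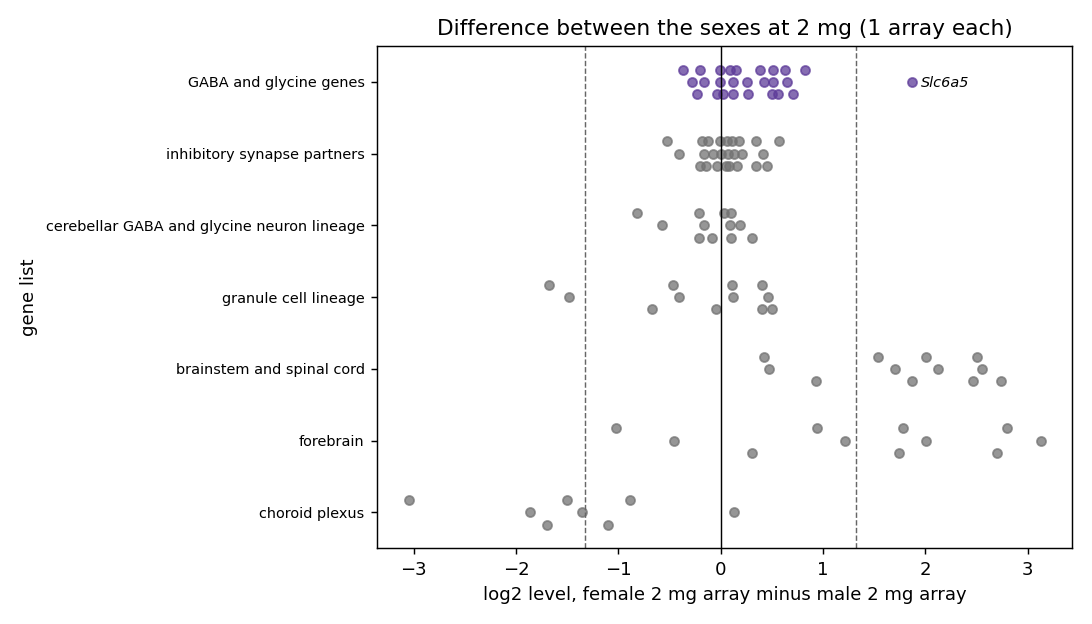
Level on the female 2 mg array minus that on the male 2 mg array (log2), 1 point per gene above background on both, for the GABA and glycine genes and 6 marker lists, with dashed lines at 2.5-fold. Slc6a5 lies at 1.86, apart from the other members, and all 12 brainstem and spinal cord genes lie right of 0.

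Other tissue lists differed between arrays too. Of the forebrain genes above background on both 2 mg arrays, 9 of 11 were higher in the female. The summed forebrain level was 13.99 to 15.25 on 4 arrays and 16.12 and 16.19 on the second arrays of males and females. On both second arrays the sum was mostly Lhx6, at 16.04 in males and 16.13 in females. Of the 13 fitted forebrain genes, 12 were lower than 2 mg and 1 higher on female 20 mg replicate 2. On male 20 mg replicate 2, 6 were lower and 7 higher. Of all 14 genes, 2 were above background on that female array and 7 on that male array. Against male 2 mg, 9 of 13 forebrain genes were higher in the mean of the male 20 mg arrays and 4 lower, while Gabra2 was lower on both. The choroid plexus sum was 11.62 on the female 2 mg array and 14.39 to 16.25 on the other 5, with 7 of 8 genes at least 2.5-fold higher in females at 20 mg. The meninges sum stayed within 13.86 and 15.09, and that of red blood cells within 14.85 and 17.47. The part of these tissues in the members' values was not tested. In bulk RNA fewer cells of a type and less RNA per cell cannot be told apart.

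The markers of the cerebellum itself were present. All 12 genes of the cerebellar GABA and glycine neuron lineage, among them the Purkinje cell gene Pcp2 and the interneuron gene Pax2, were above background on both 2 mg arrays. The summed level of this list was 13.34 to 14.09 over the 6 arrays, and its median difference was -0.11 in males and -0.08 in females. All 12 genes of the granule cell lineage were above background on 5 arrays, with summed levels of 15.19 to 16.04 and median differences of 0.08 in males and -0.46 in females. In males 1 gene of the first list was past 2.5-fold lower (Foxp2, -1.45) and 0 of the second. In females 3 of the first list were past it lower and 1 higher, and 1 of the second lower. Over all fitted probes the female shares were 17.3% lower and 7.12% higher. On female 20 mg replicate 2, 5 and 7 of the 12 genes were above background. At 2 mg 6 of 12 genes in each list were higher in the female. The granule cell genes differed by -1.68 (En2) to 0.50 (Neurod2), with Barhl1 at -1.48.

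A wider list of 25 genes of the inhibitory synapse holds chloride carriers, receptor trafficking factors, GABA-B auxiliary subunits and the enzymes of glycine breakdown. All 25 were fitted and limma called 0 of them. In the mean of the male arrays 13 were lower and 12 higher, with a median of -0.08 and 0 past 2.5-fold. In females 18 were lower and 7 higher, with a median of -0.41, 3 past 2.5-fold lower and 0 past it higher. Of all 37211 fitted probes, 19551 were lower and 17646 higher in males, and 21522 lower and 15688 higher in females. The mean was past 2.5-fold lower for 4.19% of them and higher for 2.21% in males. In females it was past 2.5-fold lower for 17.3% and higher for 7.12%. On both arrays of a sex 0 passed 2.5-fold in males. In females the value of 1 gene did, Amt of the glycine cleavage system, at 5.32 at 2 mg and 3.82 on 20 mg replicate 1, but it was not above background on replicate 2, so the second array gives no measured difference. Slc12a5, the carrier that lowers neuronal chloride, was 14.62 in males at 2 mg, with 15.29 and 14.27 at 20 mg, and Slc12a2, which raises it, was 11.40, with 11.59 and 11.06. For both carriers the male 20 mg arrays lay on either side of 2 mg, the pattern seen for Gad1, Abat and Slc32a1.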

How the data were processed

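RNA pools were hybridized to single-colour Agilent arrays. The authors extracted the deposited intensities with Agilent Feature Extraction 10.7.3.1, which subtracts background, and the scanner files also hold mean signals, local backgrounds and detection flags. The authors' deposited log2 table, quantile normalized in BRB-ArrayTools, served as an alternative. Here outlier spots were dropped, processed signals averaged per probe, put on the log2 scale, quantile normalized and raised to a floor of 10. The filter kept probes whose variance over the 6 arrays exceeded the median variance (chi-square p at or under 0.05, at most 50% missing). The fold rule has no test. limma 3.58.1 in R 4.3.3 was fitted to 37211 probes above background on at least 2 arrays, with 4 groups, a trended prior and 2 residual degrees of freedom. Calls needed a Benjamini-Hochberg adjusted p under 0.05. Both steps were tested on simulated data with noise below the typical prior SD of the fit here (1.275 in log2). That test does not show what the fit can detect at the spread of these arrays. The summed level of a list is the log2 of its summed signals.

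The members and lists were chosen with earlier results of these data known. Per-array values are given for members past 2.5-fold in males or on both arrays of a sex and for core genes of each role, and other members by range or difference. Samples were grouped by sex and dose in their labels, 0 columns outside the study were used. Precision is limited by the number of arrays. Probe positions are those of the array design in mm9, and whether a probe lies in an exon or a UTR is not given in the sources used here. The alternatives were other scalings, background corrections, probe choices, filters, blocks for slide and scan day, array weights, each 20 mg array left out in turn, and, added after seeing the data, removal of the trend with probe composition and a fit of dose and sex over 5 arrays.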

Additional observations from a re-analysis of the deposited data

Results flagged for a closer look

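For 3 members both male arrays at 20 mg lay on one side of the male 2 mg array and both female arrays on the other side of the female 2 mg array. The share of all fitted probes with this pattern was not counted, so the count is not read as a result about the members. The female minus male dose difference was -3.55 for Gabrb1 (limma interaction, adjusted p = 1), and it rests on female 20 mg replicate 2, where Gabrb1 was not above background. It was -1.27 for Slc6a5 (adjusted p = 1), which was above background on all 6 arrays. It was 1.25 for Gabra3 (adjusted p = 1), where the female arrays differed from 2 mg by 0.01 and 0.47. Unadjusted p-values of the same limma interaction were 0.153, 0.51 and 0.37. Groups of 1 and 2 arrays allowed no search for single outlying arrays.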

How the results depend on the processing

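The count of members called by limma was 0 in every comparison under every alternative run, with 13 alternatives each for dose in males, dose in females and the interaction, 14 for sex at 20 mg and 17 for dose over both sexes. The replicate numbers of the sexes share no slide, and the deviations of same-numbered arrays correlated at 0.0871, so they were not taken as pairs. With the replicate number as a block, sex at 20 mg gave 0 called members and 13 called probes. The members' median difference moved by less than the spread of the pools under all 10 alternatives. That spread is the SD of the members' medians on the 20 mg pair of a sex (0.42 in males, 0.33 in females). Leaving out an array of the pair moves their mean by less than their SD. Leaving out an array of the other sex acts only through the shared processing. The runs among the 10 that leave out an array could therefore hardly exceed the spread, and they do not test stability. Without female 20 mg replicate 1, the female values at 20 mg rest on the dim array and the spread on the male pair alone. Probes outside the members were then called for sex at 20 mg and for dose in females. No weight is placed on the number of these calls or on the p-values of that run.

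The count of members past the fold rule depended on the processing, in some settings through the filter on variation and in others through the differences themselves. With a 75th percentile shift the filter kept 0 members, so the counts were 0 lower in males, 0 lower in females and 0 higher in females. Gabra2, whose difference stayed past 2.5-fold, alone made the male count of 1 lower, and with the trend in probe composition removed this count was 0. The female count of 1 higher (Gabra6) was 0 with the floor set before normalization, with normexp and in the authors' deposited table, and 2 with the mean over probes and without the filter on variation. Leaving out each 20 mg array in turn gave 0 to 2 lower and 0 to 1 higher members in males, and 0 to 7 lower members and 1 higher member in females. With the trend removed the female count of lower members was 4. Without female 20 mg replicate 1 the male count of lower members was 0. Without female 20 mg replicate 2 the female count of lower members was 0, with Gabra2 and Gabra4 lower and Gabrd higher in males. Without male 20 mg replicate 1 Gabra2 and Glra1 were lower in males and Gabre higher, and without male 20 mg replicate 2 Gabra4 and Gabre were lower. Leaving out each 20 mg array in turn, the female difference ran from -5.50 to 0.083 for Gabra4, from -6.28 to 0.44 for Gabra5 and from -2.75 to 0.52 for Glra1, and the positive values are those without female 20 mg replicate 2. It was 0.34 for Glra1 with the 75th percentile shift. Depth of signal limits these values on female 20 mg replicate 2, where 23.3% of probes were above background.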
